A study of Mus musculus with 20 samples.

Results

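The nuclear genes of respiratory complexes II to V were taken from the table of expression values by name, as succinate dehydrogenase genes (Sdha to Sdhd), genes whose names begin with Uqcr together with Cyc1, genes named Cox4 to Cox8, and genes whose names begin with Atp5. The table listed 17415 genes, of which 51 matched by name and 47 also reached the rule's level of at least 1 CPM (counts per 1e+06 reads of the library) in at least 5 of the 20 libraries. The rule uses names and a level, not a change between groups. The 47 members were 4 genes of complex II, 9 of complex III, 15 of complex IV, 17 of complex V and 2 named as pseudogenes. Of these, Atp5pb-ps was annotated in the table as a processed pseudogene and Cox5b-ps as protein-coding, and the other 45 are called subunit genes here. Cox6b2, Cox6c2, Atp5l2-ps and Cox7c-ps1 matched by name but fell short of that level and were not tested. Cox4i2, a member at its margin, reached 1 CPM in 11 libraries, and Cox7c-ps1, just outside, in 3. Each of the other 44 subunit genes reached it in all 20.

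The libraries came from quadriceps muscle of adult mice of both sexes, 7 days after transection of the anterior cruciate ligament (ACLT) in 1 limb, a surgical knee injury. Mice received subcutaneous injections of a human monoclonal antibody specific to GDF8, also called myostatin and a brake on muscle growth (GDF8 Ab), or of a placebo antibody (PLA Ab). These antibodies were given to C57BL/6J mice and to mice carrying a Col1-eGFP reporter, and the labels do not say which of these lines the libraries came from. The study took its quadriceps RNA-seq from the experiment in which it also scored cells with the reporter. It names C57BL/6J for a separate, longer experiment. The 4 groups of 5 libraries were GDF8 Ab ACLT, PLA Ab ACLT, GDF8 Ab control and PLA Ab control, where control is the uninjured limb on the other side, so the control limbs too came from operated, antibody-treated animals. Libraries were not pooled and held 15.6 to 24.2 × 1e+06 reads. Y-linked genes were expressed in 6 libraries, those numbered 1 and 3 under PLA Ab and 3 under GDF8 Ab in both limbs, so the sexes were not balanced between the antibodies. The fast contractile muscle markers were abundant in every library, at 80075 to 138471 CPM summed over 10 genes. PLA Ab ACLT libraries 4 and 5 stood apart from the other libraries of their group, and for the calls of member genes that rest on them the values without them are given as well.

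The respiratory chain passes electrons from nutrients to oxygen and stores the energy as a proton gradient across the inner mitochondrial membrane. Complex II (succinate dehydrogenase) hands electrons from succinate to coenzyme Q, complex III passes them to cytochrome c, complex IV (cytochrome c oxidase) reduces oxygen, and complex V (ATP synthase) uses the gradient to make ATP. Complex II is wholly nuclear-encoded, while complexes III, IV and V also contain subunits encoded in mitochondrial DNA. Several small subunits of complex IV have a ubiquitous form and a form of heart and skeletal muscle. For subunits 6A, 7A and 8 these are Cox6a1 and Cox6a2, Cox7a2 and Cox7a1, and Cox8a and Cox8b.

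The results turn on these paired complex IV genes, so promoter sequences of 4 of them are shown. They are from RefSeq on GRCm38.p6 and run from 250 bases before to 50 bases after the annotated start, 5′ to 3′ on the strand of the gene. Capitals mark matches, on either strand, to 6 letter strings taken as short forms of known motifs: GCGCATGC (nuclear respiratory factor NRF1), CCGGAAGT (ETS factors such as GABP), AAGATGGCG (YY1), CAAGGTCA (estrogen-related receptors), TATAAA (the core promoter box bound by TBP) and CAGCTG (E-box). Cox6a1 lies at chr5:115348909-115349208 on the minus strand, Cox8a at chr19:7217567-7217866 on the minus strand, Cox8b at chr7:140900397-140900696 on the minus strand and Cox7a1 at chr7:30183921-30184220 on the plus strand.
Cox6a1: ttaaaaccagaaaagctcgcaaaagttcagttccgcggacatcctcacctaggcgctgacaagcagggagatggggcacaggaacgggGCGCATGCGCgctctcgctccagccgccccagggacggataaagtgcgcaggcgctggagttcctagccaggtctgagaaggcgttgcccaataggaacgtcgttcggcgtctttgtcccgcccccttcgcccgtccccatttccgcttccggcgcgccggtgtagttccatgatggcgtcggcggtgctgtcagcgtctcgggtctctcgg
Cox8a: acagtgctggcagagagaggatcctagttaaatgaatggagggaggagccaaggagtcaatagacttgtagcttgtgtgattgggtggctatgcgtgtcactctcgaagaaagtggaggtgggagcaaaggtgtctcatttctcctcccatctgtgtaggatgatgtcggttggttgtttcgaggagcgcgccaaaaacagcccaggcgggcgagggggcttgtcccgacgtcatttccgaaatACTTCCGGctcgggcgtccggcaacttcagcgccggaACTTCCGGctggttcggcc
Cox8b: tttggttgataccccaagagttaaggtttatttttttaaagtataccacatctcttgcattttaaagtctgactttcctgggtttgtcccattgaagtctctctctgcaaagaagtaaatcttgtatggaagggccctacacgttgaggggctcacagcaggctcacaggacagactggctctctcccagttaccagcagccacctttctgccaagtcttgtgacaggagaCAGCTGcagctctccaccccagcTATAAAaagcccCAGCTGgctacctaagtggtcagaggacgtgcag
Cox7a1: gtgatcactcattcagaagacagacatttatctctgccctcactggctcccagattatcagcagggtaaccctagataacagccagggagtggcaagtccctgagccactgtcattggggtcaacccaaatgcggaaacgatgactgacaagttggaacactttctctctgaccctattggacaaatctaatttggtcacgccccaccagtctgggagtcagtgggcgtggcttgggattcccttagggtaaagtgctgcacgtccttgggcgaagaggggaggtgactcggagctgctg

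In the ubiquitous Cox6a1 the window held overlapping NRF1 matches, and in the ubiquitous Cox8a it held ETS matches. The muscle form Cox8b had a TATA match and E-box matches, and no match to the 6 strings stood in the Cox7a1 window. GC content was 63% for Cox6a1, 56% for Cox8a, 48.3% for Cox8b and 53% for Cox7a1. Of the 45 subunit genes, 34 had a promoter in the RefSeq table, in 37 windows. NRF1 letters stood in 7 genes (Atp5g2, Atp5k, Atp5l, Cox6a1, Sdhb, Uqcr11 and Uqcrc1), or 18.9% of the 37 windows against 2.71% of all 32851 windows of the same length. ETS letters stood in Atp5h, Cox8a, Uqcr11 and Uqcrh (10.8% against 3.89%) and estrogen-related receptor letters in Atp5g3, Atp5l and Sdhd (8.11% against 1.56%). YY1 letters were in Atp5j and Atp5j2 (5.41% against 1.40%). E-box letters, in Atp5b and Cox8b, had a smaller share than among all windows (5.41% against 16.3%), as did TATA letters, in Atp5l, Atp5md and Cox8b (8.11% against 13.6%). These matches describe letters in the windows and do not show binding.

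The subunit genes were among the abundant transcripts of the muscle. Together the 45 made up 1.37 to 1.94% of the reads in GDF8 Ab ACLT libraries, 1.01 to 1.69% in PLA Ab ACLT, 1.54 to 1.77% in GDF8 Ab control and 1.37 to 1.76% in PLA Ab control. Levels between genes were compared as mean CPM over all 20 libraries per kilobase of the longest principal transcript. Atp5b, the catalytic beta subunit of the ATP synthase head, stood highest at 1210 CPM per kilobase, followed by the muscle isoform gene Cox6a2 at 863 and Atp5a1, the alpha subunit of the same head, at 760. The order depends on the length used: per kilobase of all exons of the gene together, Cox6a2 was at 863, Cox8b at 640, Atp5a1 at 599 and Atp5b at 547. In complex III the small subunit gene Uqcr10 was at 406 CPM per kilobase and the core subunit gene Uqcrc1 at 337. Complex II was led by Sdhb, its iron-sulphur subunit, at 294 CPM per kilobase, with Sdha, the flavoprotein that oxidises succinate, at 273 and the membrane anchor gene Sdhc at 74.0. Per kilobase of all exons together, Sdha was at 192, the membrane anchor gene Sdhd at 155 and Sdhb at 150, so that order too depended on the length. The isoforms were unequal, with 38.8 CPM per kilobase for Cox6a1 beside 863 for Cox6a2, 45.9 for Cox8a beside 640 for Cox8b, and 144 for Cox7a2 beside 413 for Cox7a1. The second form of subunit 4, Cox4i2, known from lung, was at 1.46 CPM per kilobase beside 599 for the ubiquitous Cox4i1. Of the 3 genes that encode the same c-ring subunit of complex V, Atp5g3 was at 519 CPM per kilobase, Atp5g1 at 78.4 and Atp5g2 at 40.5. Many small subunit genes have processed pseudogene copies, and how reads shared with such copies were counted is not given in the sources used here. The 2 members named as pseudogenes averaged 1.97 CPM (Cox5b-ps) and 1.00 CPM (Atp5pb-ps).

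**Figure D1:**
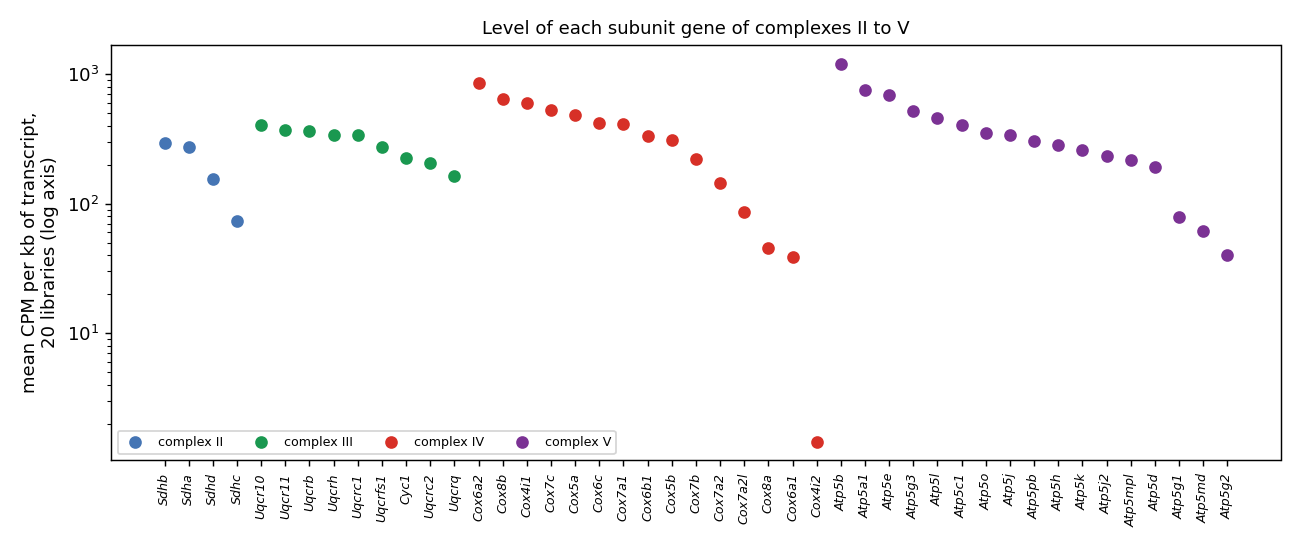
Mean CPM per kilobase of transcript of the 45 subunit genes over all 20 libraries, on a log axis and grouped by complex. Atp5b stands highest at 1210 CPM per kilobase and Cox4i2 lowest at 1.46, with the ubiquitous isoform genes Cox6a1 (38.8) and Cox8a (45.9) far below their muscle partners.

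The low ubiquitous isoform genes Cox6a1 and Cox8a were also the ones that varied most, which did not hold for the ubiquitous Cox7a2. The SD of log2(CPM + 1) over the 20 libraries was 0.628 for Cox6a1, 0.511 for Cox8a, 0.468 for Cox7a1 and 0.418 for Atp5k, a small membrane subunit of complex V. It was smallest for Cox7a2l, a factor of respiratory supercomplexes, at 0.140 and for Atp5d, in the central stalk of complex V, at 0.144.

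Under PLA Ab, the injured and the uninjured limbs were compared to ask how the injury changed these genes when GDF8 was not blocked. Cox6a1 and Cox8a, both ubiquitous complex IV isoforms, rose after the injury by 2.26-fold and 1.99-fold on the CPM + 1 scale, and no other member passed the test in either direction. Cox6a1 (ENSMUSG00000041697) was at 16.2, 32.8, 21.8, 45.6 and 68.5 CPM in PLA Ab ACLT libraries 1 to 5, against 11.9, 15.9, 11.5, 19.1 and 12.4 CPM in PLA Ab control libraries 1 to 5. Libraries 5 and 4 of the injured limbs were highest, library 1 lay within the control range, and the other 4 lay above every control library. The fitted log2 fold change was 1.17 ± 0.28 (SE, n = 5 per group, limma adjusted p = 0.00595).

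Cox8a (ENSMUSG00000035885) was at 22.5, 42.6, 27.6, 43.1 and 58.2 CPM in PLA Ab ACLT libraries, against 18.5, 17.6, 15.6, 25.6 and 14.4 CPM in PLA Ab control libraries. Again library 1 overlapped the controls and the other 4 injured limbs lay above all of them, with library 5 highest. Its log2 fold change was 0.99 ± 0.22 (limma adjusted p = 0.00343). Of the 47 members, 2 were called higher and 0 lower at an adjusted p under 0.05. Over all 13502 genes tested, 28% were called higher and 1.49% lower in this comparison, so the share of members called higher was below that of the genes at large. At an unadjusted p under 0.05, 2 members were higher and 1, Cox6a2, was lower, with no count over all genes given here. Without PLA Ab ACLT libraries 4 and 5, 0 members were called, with log2 fold changes of 0.67 for Cox6a1 (limma adjusted p = 0.0936) and 0.70 for Cox8a (limma adjusted p = 0.0522).

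The muscle partners of these genes had values on the other side. Cox6a2 (ENSMUSG00000030785) was at 619, 601, 523, 463 and 353 CPM in PLA Ab ACLT libraries, against 575, 681, 507, 774 and 625 CPM in PLA Ab control libraries. Libraries 4 and 5 lay below every control library and the other 3 within the control range. The log2 fold change of −0.32 ± 0.14 did not pass the test (limma adjusted p = 0.0846). Cox8b (ENSMUSG00000025488) was at 209, 240, 233, 185 and 118 CPM in PLA Ab ACLT libraries, against 264, 270, 207, 258 and 200 CPM in PLA Ab control libraries. Here too libraries 4 and 5 were lowest, and the log2 fold change of −0.31 ± 0.16 did not pass (limma adjusted p = 0.138).

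The third pair moved less evenly. Cox7a1 (ENSMUSG00000074218), the muscle form of subunit 7A, was at 137, 174, 185, 87.4 and 56.5 CPM in PLA Ab ACLT libraries, against 176, 167, 167, 173 and 114 CPM in PLA Ab control libraries. Libraries 4 and 5 lay below all the controls and library 3 above all of them. The log2 fold change was −0.43 ± 0.25 (limma adjusted p = 0.202). Its ubiquitous partner Cox7a2 (ENSMUSG00000032330) stayed between 84.6 and 99.0 CPM in PLA Ab ACLT and between 79.4 and 105 CPM in PLA Ab control libraries, with a log2 fold change of −0.05. Cox4i1 and Cox4i2 had log2 fold changes of −0.09 and 0.04, and neither passed.

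**Figure D2:**
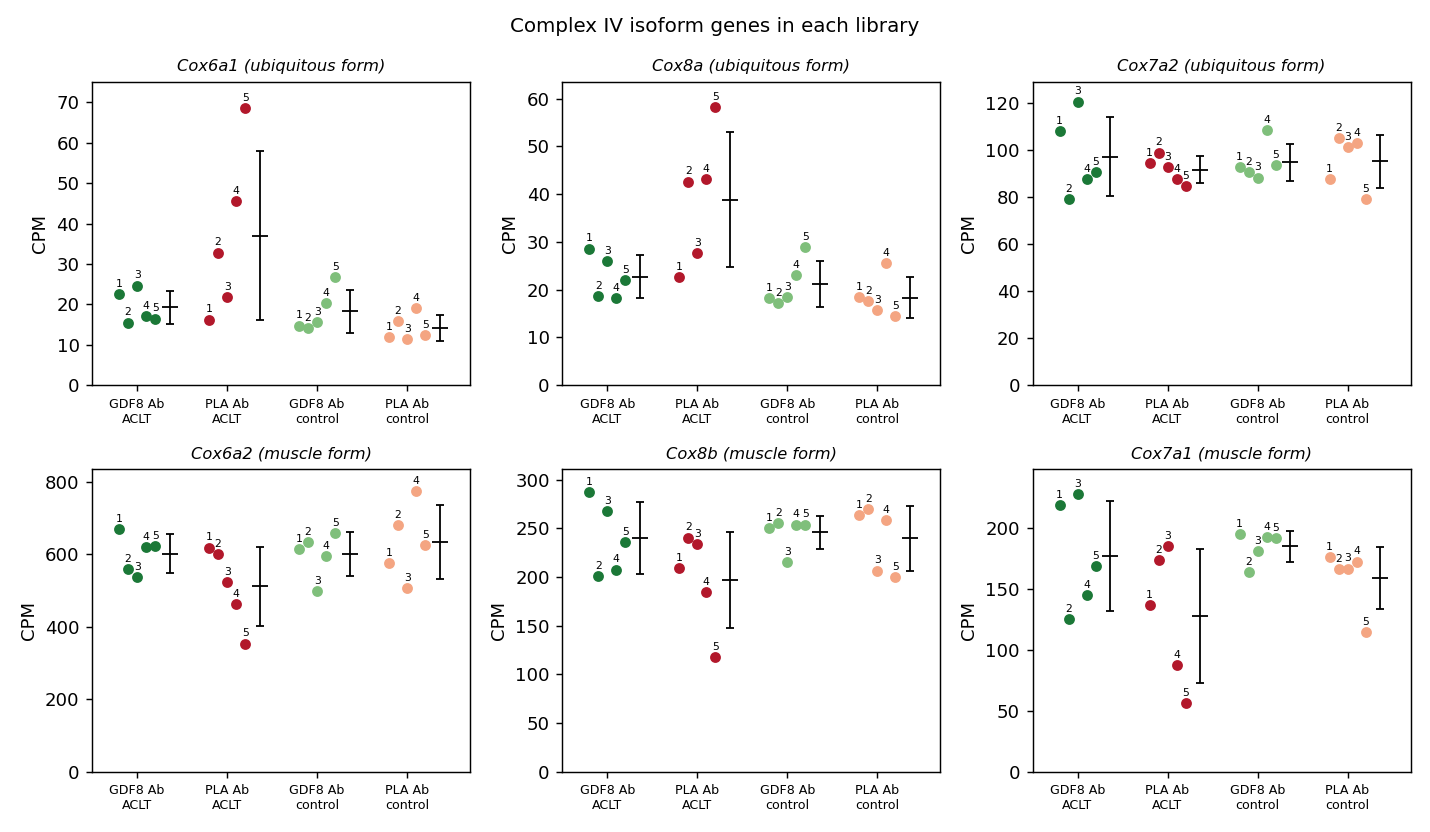
CPM of the paired complex IV isoform genes in each library, with the library number beside each point and bars for the mean ± SD of 5 libraries. Under PLA Ab the ACLT libraries reached 68.5 CPM for Cox6a1 and 58.2 CPM for Cox8a, while the control libraries reached at most 19.1 and 25.6 CPM.

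Set against GDF8 Ab, the comparison of the injured limbs asks what blocking GDF8 changed after ACLT. Cox8a fell to 0.618 times its PLA Ab level, and it was the only member to pass. It was at 28.6, 18.6, 25.9, 18.3 and 21.9 CPM in GDF8 Ab ACLT libraries, against 22.5, 42.6, 27.6, 43.1 and 58.2 CPM in PLA Ab ACLT libraries. The GDF8 Ab libraries spanned a narrow range, 3 of them lay below every PLA Ab library, and libraries 1 and 3 overlapped the low end of the PLA Ab group. The log2 fold change was −0.70 ± 0.22 (SE, n = 5 per group, limma adjusted p = 0.0385).

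Cox6a1 was at 22.5, 15.4, 24.6, 17.1 and 16.5 CPM in GDF8 Ab ACLT libraries, against 16.2, 32.8, 21.8, 45.6 and 68.5 CPM in PLA Ab ACLT libraries. The groups overlapped, because PLA Ab ACLT libraries 1 and 3 lay within the GDF8 Ab range, and the log2 fold change of −0.76 ± 0.28 did not pass (limma adjusted p = 0.0653). Of the 47 members, 0 were called higher and 1 lower, where 0.733% of all genes tested were called higher and 17.6% lower, so the share of members called lower was again below the background. At an unadjusted p under 0.05, 8 members were higher and 2 lower. The count over all genes at that level is not given here, so these are not read as particular to the members. Without PLA Ab ACLT libraries 4 and 5, Cox8a was no longer called, with a log2 fold change of −0.40 (limma adjusted p = 0.513). Leaving out any of GDF8 Ab ACLT libraries 2, 4 and 5 or PLA Ab ACLT libraries 2, 4 and 5 also ended that call, and the log2 fold change then ran from −0.87 to −0.53 over all single libraries left out. With median-of-ratios scaling Cox8a was not called either (−0.47, limma adjusted p = 0.0665). With Y-linked expression as a covariate, 4 members were called: Cox6a1 and Cox8a lower, Cox5a and Cox7a1 higher. The share of all genes called with that covariate is not given here. Within PLA Ab ACLT the covariate sets libraries 1 and 3 apart from libraries 2, 4 and 5.

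The ratio of the ubiquitous to the muscle gene within a library cancels the scaling of the library, apart from the 1 added to each CPM value, which weighs most on Cox4i2 at about 1 CPM. It was compared between groups as log2 of (CPM + 1) over (CPM + 1) with two-sided exact permutation tests, 4 ratios in 4 comparisons, and p adjusted over these 16 tests. Cox6a1 made up 2.55, 5.18, 4.01, 8.96 and 16.2% of the CPM of Cox6a1 and Cox6a2 together in PLA Ab ACLT libraries, against 1.95 to 2.41% in PLA Ab control libraries. Every injured limb lay above every control limb. The ratio was 2.81-fold higher (log2 difference 1.49, exact permutation p = 0.00794, adjusted p = 0.0423, n = 5 per group), and this p is the smallest that 5 against 5 libraries can give. In the same way Cox8a made up 9.73, 15.1, 10.6, 18.9 and 33.1% of Cox8a and Cox8b in PLA Ab ACLT libraries, against 6.12 to 9.02% in PLA Ab control libraries. The groups did not overlap, and the ratio was 2.47-fold higher (log2 difference 1.30, exact permutation p = 0.00794, adjusted p = 0.0423). These tests treat the libraries as independent, although the control limbs came from the operated mice. Sign flips over same-numbered limbs gave an exact permutation p = 0.0625 for both pairs, the smallest 5 sets allow. Whether the numbers pair the limbs of a mouse was not established.

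With GDF8 Ab, Cox8a made up 8.09 to 9.04% of its pair in the ACLT limbs, below every PLA Ab ACLT library. The ratio was 0.497 times that under PLA Ab (log2 difference −1.01, exact permutation p = 0.00794, adjusted p = 0.0423, n = 5 per group). For Cox6a1 the shares were 3.25, 2.69, 4.39, 2.69 and 2.58% in GDF8 Ab ACLT libraries, all above the lowest PLA Ab ACLT library, and the ratio difference of −1.01 did not pass (exact permutation p = 0.0952, adjusted p = 0.254). Without PLA Ab ACLT libraries 4 and 5, the log2 differences after injury under PLA Ab were 0.78 for the Cox6a pair and 0.77 for the Cox8 pair, each with an unadjusted exact permutation p = 0.0179, the smallest possible with 3 against 5 libraries. Between the antibodies in injured limbs they were then −0.30 for the Cox6a pair (exact permutation p = 0.393) and −0.47 for the Cox8 pair (exact permutation p = 0.0179). A comparison added after seeing the data used only libraries without Y-linked expression. In PLA Ab ACLT these were libraries 2, 4 and 5, so libraries 4 and 5 were kept and libraries 1 and 3 left out. The log2 differences after injury under PLA Ab were then 2.11 for the Cox6a pair and 1.77 for the Cox8 pair. Each had an exact permutation p = 0.10, the smallest that 3 against 3 can give. In those libraries the antibody difference in injured limbs was −1.77 for the Cox6a pair and −1.52 for the Cox8 pair. Here each exact permutation p was 0.0286, the smallest that 4 against 3 libraries can give.

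The Cox7a2 to Cox7a1 ratio differed by 0.38 after injury under PLA Ab (exact permutation p = 0.286) and by −0.49 between the antibodies in injured limbs (exact permutation p = 0.135). PLA Ab ACLT libraries 4 and 5 had log2 ratios of 0.00 and 0.57, above all other libraries, and without them the difference after injury was −0.05. In control limbs the Cox6a1 to Cox6a2 ratio was 0.40 higher with GDF8 Ab on the log2 scale and did not pass (exact permutation p = 0.0635, adjusted p = 0.203), with 3 of 5 GDF8 Ab control libraries above every PLA Ab control library. There the Cox7a2 to Cox7a1 ratio was lower with GDF8 Ab by 0.23 on the log2 scale at an exact permutation p = 0.0397, which did not hold after adjustment (adjusted p = 0.159, n = 5 per group). Cox4i2 over Cox4i1 differed by 0.13 after injury under PLA Ab (exact permutation p = 0.302) and by −0.20 between antibodies in injured limbs (exact permutation p = 0.222).

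**Figure D3:**
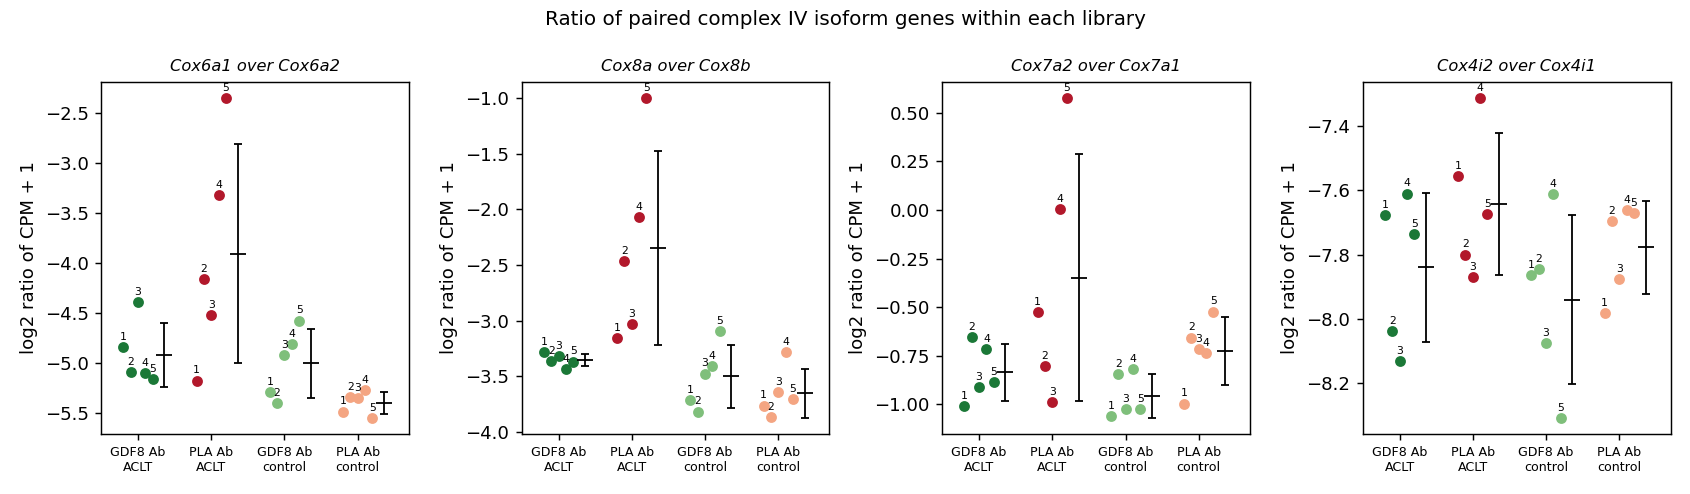
Log2 ratio of CPM + 1 of paired complex IV genes within each library, with library numbers beside the points and bars for the mean ± SD of 5 libraries. For Cox8a over Cox8b all 5 PLA Ab ACLT libraries lie above both the GDF8 Ab ACLT and the PLA Ab control libraries, with means of −3.35 (GDF8 Ab ACLT), −2.35 (PLA Ab ACLT) and −3.65 (PLA Ab control).

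Markers of other cells moved with Cox6a1 and Cox8a in the comparisons of PLA Ab ACLT with PLA Ab control and with GDF8 Ab ACLT. All 10 macrophage markers tested rose after ACLT under PLA Ab and all 10 were lower with GDF8 Ab in injured limbs, and of 8 fibroblast and matrix markers 7 rose and 4 were lower. With PLA Ab ACLT libraries 4 and 5 left out, 9 macrophage and 5 fibroblast and matrix markers were called higher after ACLT under PLA Ab, and 1 and 0 were called lower with GDF8 Ab in injured limbs. Summed over the 10 macrophage markers, libraries held 87.4 to 343 CPM in GDF8 Ab ACLT, 302 to 2145 CPM in PLA Ab ACLT, 59.3 to 101 CPM in GDF8 Ab control and 40.0 to 116 CPM in PLA Ab control. The mean of their log2 values, relative to PLA Ab control, was 1.68, 2.62, 1.92, 3.60 and 4.45 in PLA Ab ACLT libraries 1 to 5. Cox6a1 and Cox8a had the same order of libraries in that group (5, 4, 2, 3 and 1 from the highest). After ACLT under GDF8 Ab, Cox6a1 and Cox8a had log2 fold changes of 0.09 and 0.10, and no macrophage or fibroblast marker was called. Yet the mean macrophage level on this scale was 1.10 in GDF8 Ab ACLT and −0.08 in GDF8 Ab control libraries. For the fibroblast and matrix markers it was 1.40 and −0.06. The part of these cells in the Cox6a1 and Cox8a results was not tested, and in whole muscle more cells of a type cannot be told apart from more RNA per cell. Of 6 neutrophil markers 0 reached the level tested, and none of the endothelial, adipocyte or erythroid markers was called in any comparison.

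The remaining 43 subunit genes, without Cox6a1 and Cox8a, had small changes of which none was called in any comparison. In the injured limbs, 41 of all 45 subunit genes had higher fitted values with GDF8 Ab than with PLA Ab and 4 (Cox6a1, Cox8a, Cox7a2l and Cox4i2) lower. The median over the 47 members was a log2 fold change of 0.22 beside −0.20 for all 13502 genes. By complex the median was 0.23 for complex II (4 of 4 positive), 0.28 for complex III (9 of 9), 0.17 for complex IV (11 of 15) and 0.21 for complex V (17 of 17).

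After ACLT under PLA Ab, the same PLA Ab ACLT libraries enter again, so the values of these comparisons are not independent. Here 4 of the 45 subunit genes had positive and 41 negative fitted changes, with a median over the 47 members of −0.15 beside 0.19 for all genes. The medians were −0.24 for complex II (0 of 4 positive), −0.18 for complex III (0 of 9), −0.09 for complex IV (4 of 15) and −0.13 for complex V (0 of 17).

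**Figure D4:**
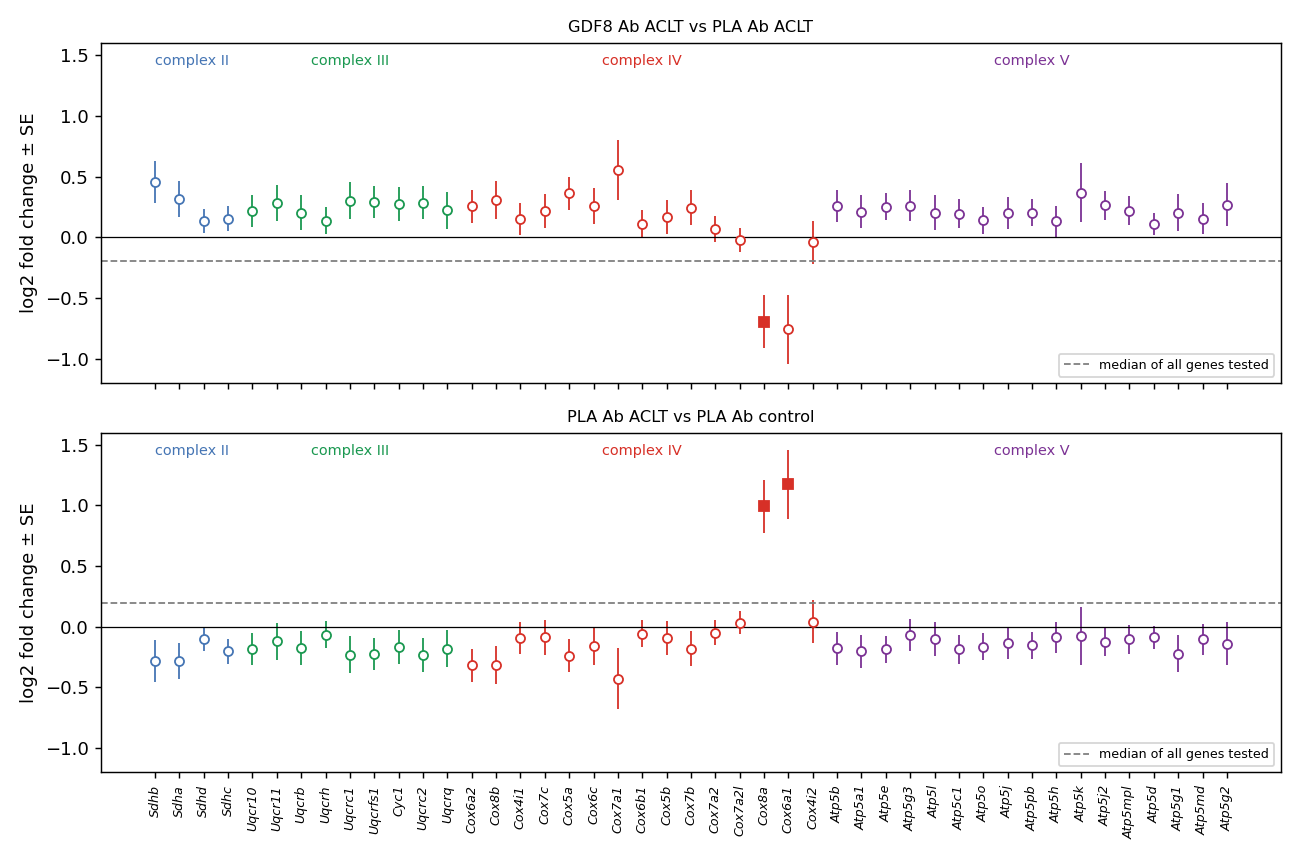
Fitted log2 fold change ± SE of each of the 45 subunit genes in GDF8 Ab ACLT against PLA Ab ACLT (top) and in PLA Ab ACLT against PLA Ab control (bottom), with filled squares for an adjusted p under 0.05 and a dashed line at the median of all genes tested (−0.20 and 0.19). Most genes lie slightly above 0 in the top panel and slightly below 0 in the bottom panel, while Cox8a and Cox6a1 lie far on the other side in both.

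In complex II, Sdhb had the largest fitted difference between the antibodies. It was at 500, 302, 377, 319 and 336 CPM in GDF8 Ab ACLT libraries, against 248, 390, 313, 222 and 185 CPM in PLA Ab ACLT libraries. GDF8 Ab ACLT library 1 was highest of all and the groups overlapped. The log2 fold change was 0.46 ± 0.18 (limma adjusted p = 0.0707). Sdha was at 919, 703, 936, 770 and 770 CPM in GDF8 Ab ACLT, against 753, 821, 820, 531 and 448 CPM in PLA Ab ACLT libraries. PLA Ab libraries 4 and 5 were again the low ones, and the difference of 0.31 ± 0.15 did not pass (limma adjusted p = 0.124). After ACLT under PLA Ab, Sdha and Sdhb each differed by −0.28 and the membrane anchor Sdhc by −0.20 ± 0.10 (limma adjusted p = 0.144).

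In complex III, the catalytic Rieske protein gene Uqcrfs1 differed by 0.29 ± 0.13 between the antibodies in injured limbs (limma adjusted p = 0.116) and the core subunit genes Uqcrc2 and Uqcrc1 by 0.29 and 0.30. Uqcrc1 was at 683, 445, 713, 532 and 527 CPM in GDF8 Ab ACLT libraries, against 490, 561, 599, 383 and 339 CPM in PLA Ab ACLT libraries. Both groups spread widely and overlapped. After ACLT under PLA Ab, Uqcrc2 differed by −0.23 and Uqcrfs1 by −0.22, without passing.

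Cox5a, a complex IV subunit with a single form, came nearest to a call among the genes with higher values under GDF8 Ab. It was at 401, 294, 356, 293 and 341 CPM in GDF8 Ab ACLT libraries, against 306, 324, 306, 219 and 177 CPM in PLA Ab ACLT libraries. GDF8 Ab libraries 1, 3 and 5 lay above every PLA Ab library and the other 2 within the PLA Ab range. The log2 fold change was 0.36 ± 0.14 (limma adjusted p = 0.0661). Cox7a1 was at 219, 125, 228, 145 and 169 CPM in GDF8 Ab ACLT libraries, with a difference of 0.56 ± 0.25 from PLA Ab ACLT (limma adjusted p = 0.108). Cox6a2 and Cox8b differed by 0.26 ± 0.14 and 0.31 ± 0.16, with limma adjusted p = 0.171 and 0.147.

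In complex V, Atp5b was at 2869, 2020, 2663, 2265 and 2256 CPM in GDF8 Ab ACLT libraries, against 2146, 2491, 2350, 1730 and 1472 CPM in PLA Ab ACLT libraries. PLA Ab libraries 4 and 5 were lowest and the rest overlapped, with a log2 fold change of 0.26 ± 0.13 (limma adjusted p = 0.157). Atp5e, the epsilon subunit of the central stalk, had the smallest p of the complex, at 358, 263, 336, 274 and 320 CPM in GDF8 Ab ACLT, against 271, 301, 268, 261 and 201 CPM in PLA Ab ACLT libraries. Its log2 fold change was 0.25 ± 0.11 (limma adjusted p = 0.108).

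The libraries behind these medians were uneven. The mean log2 level of the 43 genes relative to PLA Ab control was 0.35, −0.16, 0.20, −0.10 and 0.05 in GDF8 Ab ACLT libraries 1 to 5, against −0.02, 0.13, 0.01, −0.31 and −0.60 in PLA Ab ACLT libraries 1 to 5. PLA Ab ACLT libraries 4 and 5 were the lowest of all 20. There, 34 and 40 of the 43 genes lay below every PLA Ab control library. In PLA Ab ACLT libraries 1, 2 and 3, 4, 0 and 1 genes did so. Counts outside the control range were not made over all genes tested, so they are not read as particular to the members. The GDF8 Ab ACLT libraries were set against GDF8 Ab control. In GDF8 Ab ACLT library 1, 38 of the 43 genes lay above every GDF8 Ab control library. In GDF8 Ab ACLT libraries 2 and 4, 33 and 28 genes lay below every GDF8 Ab control library. Without PLA Ab ACLT libraries 4 and 5 the median over members was 0.03 for GDF8 Ab against PLA Ab in injured limbs and 0.05 for ACLT against control under PLA Ab, so the negative sign after injury did not hold.

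Fast contractile fibre genes, 10 in the list, moved in part with these scores. Their mean log2 level relative to PLA Ab control was −0.18, 0.18, 0.01, 0.18 and 0.23 in GDF8 Ab ACLT libraries, against 0.19, −0.24, −0.05, −0.35 and −0.62 in PLA Ab ACLT libraries. PLA Ab ACLT libraries 4 and 5 were low in both, but GDF8 Ab ACLT library 1 had the highest subunit score and the lowest fibre score of its group. Slow fibre genes, 7 in the list, ranged from −4.68 to 1.61 in GDF8 Ab ACLT and from −4.41 to 0.83 in PLA Ab ACLT libraries, and of them Myl2, a slow myosin light chain, was called lower after ACLT under PLA Ab (−3.12 ± 1.16, limma adjusted p = 0.0497). Myl2 was not called without PLA Ab ACLT libraries 4 and 5 (−2.62, limma adjusted p = 0.266). The part of fibre content or fibre type in the subunit levels was not tested.

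**Figure D5:**
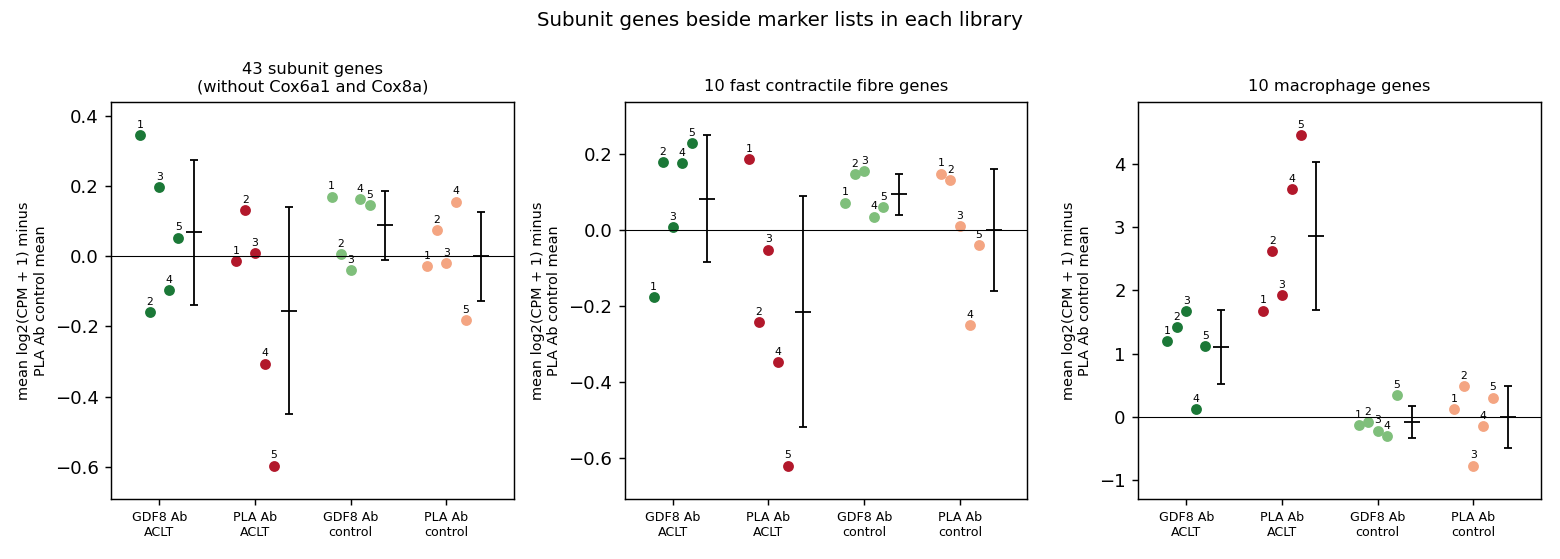
Mean log2(CPM + 1) relative to the PLA Ab control mean in each library, for the 43 subunit genes without Cox6a1 and Cox8a, 10 fast contractile fibre genes and 10 macrophage genes, with library numbers and bars for the mean ± SD. PLA Ab ACLT libraries 4 and 5 lie lowest for the subunit genes (−0.31 and −0.60) and highest for the macrophage genes (3.60 and 4.45).

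The size of these small shifts depended on the scaling of the libraries. With median-of-ratios factors in place of CPM, the median of all genes moved to 0.00 between antibodies in injured limbs and to −0.03 after ACLT under PLA Ab, and the member medians moved to 0.44 and −0.39. Then 3 members were called higher with GDF8 Ab in injured limbs (Atp5e, Cox5a and Sdhb) and 0 lower, of 500 genes called higher and 1191 lower. After ACLT under PLA Ab, 2 were called higher (Cox6a1 and Cox8a) and 9 lower (Atp5c1, Atp5e, Cox6a2, Cox8b, Sdha, Sdhc, Sdhd, Uqcrc2 and Uqcrfs1), of 2573 genes called higher and 1935 lower. Scaled instead to the fast fibre genes, the member medians were −0.07 and 0.04. The direction of the medians therefore held under CPM and median-of-ratios but not relative to fibre genes, while Cox6a1 and Cox8a were called higher after ACLT under PLA Ab under all 3 scalings.

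The control limbs were compared between the antibodies to ask what blocking GDF8 changed without injury. Limma called 0 members higher and 0 lower, as it did for 0% and 0% of all genes tested, and 0 members and 801 of all genes had an unadjusted p under 0.05. The median over members was 0.09 beside −0.04 for all genes, and 39 of the 45 subunit genes had positive fitted values. The smallest p belonged to the c-ring gene Atp5g3, at 0.26 ± 0.13 (limma adjusted p = 0.834). Sdhb differed by 0.25, the cytochrome c1 gene Cyc1 by 0.20 and Cox5a by 0.17. Cox6a1 was at 14.7, 14.0, 15.5, 20.3 and 26.8 CPM in GDF8 Ab control libraries, against 11.9, 15.9, 11.5, 19.1 and 12.4 CPM in PLA Ab control libraries. Libraries 4 and 5 were above all PLA Ab control libraries, and the log2 fold change of 0.33 ± 0.28 did not pass.

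After ACLT under GDF8 Ab, limma called 0 members higher, where 0.0222% of all genes were called, and 0 lower, where 0% were. At an unadjusted p under 0.05 the counts were 0 members and 346 of all genes. The fitted log2 fold changes of Cox6a1 and Cox8a were 0.09 ± 0.28 and 0.10 ± 0.22. Cox8a ranged from 18.3 to 28.6 CPM in GDF8 Ab ACLT libraries, against 17.2 to 28.9 CPM in GDF8 Ab control libraries, so the groups overlapped throughout. The c-ring gene Atp5g2 had the smallest p of complex V, at 0.30 ± 0.18 (limma adjusted p = 1). The median over members was −0.03 beside 0.05 for all genes, with 18 positive and 27 negative values among the subunit genes.

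The interaction tests whether the change after ACLT differed between the antibodies. Limma called 0 members higher and 0 lower, as for 0% and 0% of all genes, and 2 members and 2164 of all genes had an unadjusted p under 0.05. These 2 were Cox8a at −0.89 ± 0.31 (limma adjusted p = 0.258) and Cox6a1 at −1.09 ± 0.40 (limma adjusted p = 0.258). A different injury response of the 2 genes under the antibodies was thus not established over all genes tested. Without PLA Ab ACLT libraries 4 and 5 the estimates were −0.60 and −0.58. The other 43 subunit genes had estimates between 0.00 and 0.44, with a median over the 47 members of 0.12 beside −0.15 for all genes. The largest was that of Atp5g2, at 0.44 ± 0.25 (limma adjusted p = 0.379), with 34.5, 31.3, 31.1, 33.8 and 33.8 CPM in GDF8 Ab ACLT libraries and 17.0, 25.9, 25.6, 34.1 and 34.3 CPM in GDF8 Ab control libraries.

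Other genes of the pathway were read from lists chosen by function, except that nuclear complex I genes were taken by name alone. Their names were Ndufa, Ndufb, Ndufc, Ndufs or Ndufv followed by a number. Of these 39 genes none was called in any of the 5 comparisons. Their medians were 0.23 between the antibodies in injured limbs and −0.17 after ACLT under PLA Ab, beside 0.22 and −0.15 for the members. The 6 mitochondrially encoded genes of complexes III to V had medians of 0.29 and −0.33 and none was called. Assembly factors of complex II (4 tested), complex IV (24) and complex V (5), electron carrier genes (6) and supercomplex and cristae genes (10) also had no call. Of 6 assembly genes of complex III, Uqcc1 alone was called, higher with GDF8 Ab in injured limbs by 0.29 ± 0.09 (limma adjusted p = 0.0405). It was not called without PLA Ab ACLT libraries 4 and 5 (0.15, limma adjusted p = 0.565).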

How the data were processed

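RNA-seq values of 20 mouse quadriceps libraries, grouped by their labels, were used. The deposited values are CPM, for which the authors used STAR 2.7.3a and Partek per the labels, which name DESeq2 as well. Each library summed to 1e+06, and whole reads could not be recovered, so no count model was used. The labels name both mm10 and mm39. The gene starts in the table were those of GRCm38 for 0 of 47 members, so its coordinates are not printed. Depths of 15.6 to 24.2 × 1e+06 reads came from the smallest steps between values, and a floor of 3 reads covers counting error only. Genes with at least 1 CPM in 5 libraries (13502) were tested with limma 3.58.1 in R 4.3.3 on log2(CPM + 1), with a mean-variance trend and 4 group means fitted to all libraries, in 5 comparisons, and p was adjusted by Benjamini-Hochberg over all genes. Fold changes are on the log2(CPM + 1) scale, which understates low genes. The labels do not say that libraries are separate animals, although the study describes unpooled mice, so p-values measure the spread between libraries. Isoform ratios were compared with exact permutation tests (252 arrangements). Transcript lengths were those of GENCODE M21, matched by gene ID for 47 of 47 members. Scripts were tested on simulated data. Named were members called in any comparison, the paired isoform genes, and in each complex the member with the smallest p in each comparison and the one with the highest mean CPM. Others named beside a count or as holding a promoter match, or as examples of level and spread, were chosen after their values were seen. The members and lists were chosen with earlier results of these data known. Alternatives were pseudocounts of 0.1 and 5, a filter of 10 CPM, other scalings, left-out libraries, a replicate block, a Y-linked covariate and fits of the compared groups alone.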

Additional observations from a re-analysis of the deposited data

Results flagged for a closer look

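In groups of 5 libraries, a library was marked where its gap to the nearest other, divided by the range of the group, passed the 95% critical value of Dixon's test for 5 values (0.71). Of 116 groups examined, 6 were marked, and chance marks about 1 in 20. Cox4i2 stood apart at 0.561 CPM in a PLA Ab ACLT library. In GDF8 Ab control, Atp5e at 245 CPM and Cox8b at 215 CPM were low in library 3, Uqcrc1 at 523 CPM was low in library 2, and Cox7a2 at 109 CPM was high in library 4. Cox7a1 at 114 CPM was low in PLA Ab control library 5.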

How the results depend on the processing

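Members called between the antibodies in injured limbs numbered 1 and came to 0 with a filter of 10 CPM (Cox8a at −0.70, limma adjusted p = 0.0524), 3 with median-of-ratios factors, 2 with scaling to fast fibre genes, 4 with the Y-linked covariate, 0 without PLA Ab ACLT libraries 4 and 5, 0 in a fit of those 2 groups alone, and 0 to 7 with single libraries left out. After ACLT under PLA Ab the count of 2 came to 11 with median-of-ratios factors, 0 without libraries 4 and 5, 1 in a fit of the 2 groups alone (Cox8a), and 2 to 3 with single libraries left out. The interaction count of 0 came to 0 to 2 with single libraries left out. The counts in control limbs and under GDF8 Ab stayed at 0 under every alternative run. Apart from median-of-ratios, counts over all genes under these alternatives are not given here, so these counts are not read as particular to the members. The member median between antibodies in injured limbs (0.22) became 0.44 with median-of-ratios factors, −0.0733 with fibre scaling and 0.0269 without libraries 4 and 5 (0.11 to 0.29 with single libraries left out). After ACLT under PLA Ab the median of −0.15 became −0.39, 0.0439 and 0.0461 under the same 3 alternatives (−0.22 to −0.05). The interaction median of 0.12 became −0.0801 with fibre scaling and −0.0799 without libraries 4 and 5 (0.02 to 0.19). Signs of single members changed as well. Of the 47, 34 changed sign between antibodies in injured limbs under fibre scaling and 15 without libraries 4 and 5, and after ACLT under PLA Ab 31 and 35 did. Among genes called under any alternative, those under fibre scaling were, between antibodies in injured limbs, Atp5e (−0.0406) and Uqcrfs1 (−0.00436) and, after ACLT under PLA Ab, Atp5c1 (0.0203), Atp5e (0.0208), Sdhc (0.00279) and Sdhd (0.103). Without libraries 4 and 5 they were, after ACLT under PLA Ab, Sdha (0.00439), Sdhd (0.00690) and Uqcrc2 (0.00240). Beyond the alternatives' own construction, the cause was not tested.

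Cox6a1 and Cox8a kept the direction of their changes after ACLT under PLA Ab in every alternative run. With single libraries left out, the log2 ratio differences ran from 1.10 to 1.81 for the Cox6a pair and from 0.97 to 1.51 for the Cox8 pair after ACLT under PLA Ab, and from −1.21 to −0.67 for the Cox8 pair between antibodies in injured limbs. With the replicate number as a block (consensus correlation 0.225), 1 member was called between antibodies in injured limbs, 3 after ACLT under PLA Ab, where Cox6a2 was added as lower (limma adjusted p = 0.0481), and 0 in the other comparisons. Whether the number pairs the limbs of a mouse was not established, since same-numbered limbs deviated together at r above 0.1 in 8 of 10 sets (0.0349 to 0.517), although Y-linked expression matched in 10 of 10. By sign flips over same-numbered limbs the Cox6a and Cox8 ratios after ACLT under PLA Ab were positive in 5 of 5 sets (exact permutation p = 0.0625, the smallest 5 sets allow). The Cox7a2 over Cox7a1 ratio after ACLT under GDF8 Ab was positive in 5 of 5 sets as well (0.12, exact permutation p = 0.0625). The precision is limited by 5 libraries in each group, and for Cox4i2 and the 2 members named as pseudogenes by levels near 1 CPM.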

Other observations

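The carriers that exchange ADP and ATP across the inner membrane showed a change in one form like that of the complex IV isoforms. Slc25a5, the broadly expressed ADP/ATP carrier, rose after ACLT under PLA Ab by a log2 fold change of 1.44 ± 0.28 (limma adjusted p = 0.00179) and was lower with GDF8 Ab in injured limbs by −1.17 ± 0.28 (limma adjusted p = 0.0197). It was at 29.3, 22.5, 25.8, 21.5 and 23.3 CPM in GDF8 Ab ACLT, against 26.6, 54.7, 36.1, 74.9 and 137 CPM in PLA Ab ACLT libraries, where only library 1 overlapped the GDF8 Ab range. Slc25a4, the muscle form, averaged 3351 CPM in GDF8 Ab ACLT, against 2699 CPM in PLA Ab ACLT libraries, and was not called. With PLA Ab ACLT libraries 4 and 5 left out, Slc25a5 was still called higher after ACLT under PLA Ab (0.88, limma adjusted p = 0.00443) but not lower with GDF8 Ab in injured limbs (−0.60, limma adjusted p = 0.172). Ucp2, an inner membrane carrier known from immune cells, rose after ACLT under PLA Ab by 2.64 ± 0.47 (limma adjusted p = 0.00104) and was lower with GDF8 Ab in injured limbs by −1.75 ± 0.47 (limma adjusted p = 0.0272). Without those libraries its values were 1.67 (limma adjusted p = 0.00218) and −0.78 (limma adjusted p = 0.352), and only the rise after ACLT was called. With all libraries the macrophage markers moved in the same directions in both comparisons, and their part in these values was not tested.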
